A study of Eublepharis macularius with 23 samples.

Results

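The transcription factors that set up and maintain the pigment cell lineage were followed through the skin of leopard gecko (*Eublepharis macularius*) embryos from lines of 2 hypomelanistic morphs, Hypome 1 and Hypome 3. Animals homozygous for either allele carry less melanin than the wild type. The paper describes both traits as recessive, and heterozygous Hypome 1 geckos as without the hypomelanistic phenotype, so heterozygous embryos are carriers. The 8 factors were chosen by name: *MITF*, *SOX10*, *PAX3*, *PAX7*, *TFAP2A*, *FOXD3*, *TFEC* and *SNAI2*. All 8 were among the 22064 genes of both count tables, and all 8 passed the filter on low counts in both fits. Bulk mRNA sequencing of dorsal skin at about embryonic day 40 gave 4 homozygous (Hom), 3 heterozygous (Het) and 2 wild-type (WT) libraries of Hypome 1, and 3 heterozygous libraries of Hypome 3. The 9 Hypome 1 embryos were siblings, offspring of 1 pair of parents that both carried the Hypome 1 allele on 1 chromosome, and were sampled over 3 seasons, so each library is a separate embryo of unknown sex. Another 8 libraries of the Hypome 2 morph and 3 homozygous libraries of Hypome 3 were not analysed here.

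These factors are best known from the neural crest, the migratory embryonic cell population at the edge of the neural plate that gives rise to pigment cells. In mouse and zebrafish, FOXD3, TFAP2A, SNAI2, PAX3 and PAX7 act in the early crest, SOX10 keeps crest cells multipotent and then drives both glial and pigment fates, and SOX10 and PAX3 activate MITF. MITF in turn directs the melanin-producing cell, switching on the enzymes and structural proteins of the melanosome, while its close relative TFEC marks the light-reflecting iridophores in zebrafish. Reptile skin holds melanophores, iridophores and the yellow to red xanthophores. In bulk skin, fewer cells of a type and less RNA per cell cannot be told apart.

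The 8 genes lay on 6 scaffolds of the assembly the authors built, and no other gene of the tables overlapped any of them. *MITF* spanned Scaffold 4 from 139367978 to 139563827 on the minus strand in 11 exon blocks. *SOX10*, at 70511310 to 70538163 in 4 exon blocks, and *TFEC*, at 30230723 to 30275779 in 10, were both on the plus strand of Scaffold 9. *TFAP2A*, at 100710437 to 100736749 on the minus strand, and *SNAI2*, at 58989217 to 58993612 on the plus strand, shared Scaffold 8. *PAX3* was on Scaffold 6 (98847337 to 98983998, minus), *PAX7* on Scaffold 17 (44590333 to 44726623, minus) and *FOXD3*, with a single exon, on Scaffold 5 (75566739 to 75568610, minus).

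Depth was 32455975 to 52017277 counts per library for Hypome 1 and 16826633 to 21208295 for Hypome 3. Of the Hypome 1 counts 57.8% to 65.5% were even numbers, against 49.9% to 50.0% in Hypome 3, so the mates of a read pair may have been counted separately in Hypome 1, and its counts and depth may overstate the number of fragments. Counts of the 8 factors in the Hypome 1 libraries ran from 57 for *PAX3* to 5139 for *TFAP2A*. Library composition was uneven: the 20 largest genes took 32.3% of the counts of Hom replicate 1, against 21.2% to 28.7% in the other 8 Hypome 1 libraries, and the TMM factor that corrects for this was 0.78 in Hom replicate 1 and 0.963 to 1.08 in the others. Hom replicates 1 and 4 also had lower RNA integrity than the rest. The genes that define muscle summed to 4400 CPM, counts scaled to a common library size, in Hom replicate 1 and 31.1 to 99.4 CPM in the other Hom libraries, against 303 to 3190 CPM in Het and 437 to 710 CPM in WT libraries, a spread whose part in the results below was not tested.

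In TPM, which scales counts by gene length and library total, the 8 factors fell into a high group of *SNAI2*, *TFAP2A* and *SOX10* and a low group of the other 5. *SOX10* averaged 39.5 ± 14.0 TPM in Hom, 44.5 ± 9.53 TPM in Het, 47.0 ± 3.7 TPM in WT and 57.2 ± 8.94 TPM in Hypome 3 Het skin (SD, n = 4, 3, 2 and 3). *MITF*, the next in order in every group, averaged 13.1 ± 3.42 TPM in Hom, 12.6 ± 0.351 TPM in Het, 14.0 ± 2.44 TPM in WT and 14.9 ± 0.502 TPM in Hypome 3 Het skin. The ranges of the high group and of *MITF* did not overlap in any of the 4 groups, whereas within the high group all neighbours overlapped. *SNAI2* had the highest mean in Het (51.8 TPM), WT (51.8 TPM) and Hypome 3 Het skin (71.4 TPM), and *TFAP2A* in Hom skin (44.9 TPM).

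Below *MITF*, the order of *TFEC*, *FOXD3*, *PAX7* and *PAX3* differed between groups and most neighbours overlapped. *PAX7* was last in Hom (4.9 ± 3.19 TPM), WT (6.84 ± 4.27 TPM) and Hypome 3 Het skin (8.52 ± 2.21 TPM), and *PAX3* was last in Het skin (4.82 ± 2.04 TPM). Even these factors stood above at least 50.5% of all genes of the tables in the group mean, and *SOX10* above 87.5% to 89.8%. The exonic lengths of 5 of the 8 factors are whole multiples of 3, as in 42.6% of all genes, so several of the gene models may hold no untranslated regions. Both the counts and the length of such a gene would leave those regions out, and the effect on its TPM was not tested.

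**Figure D1:**
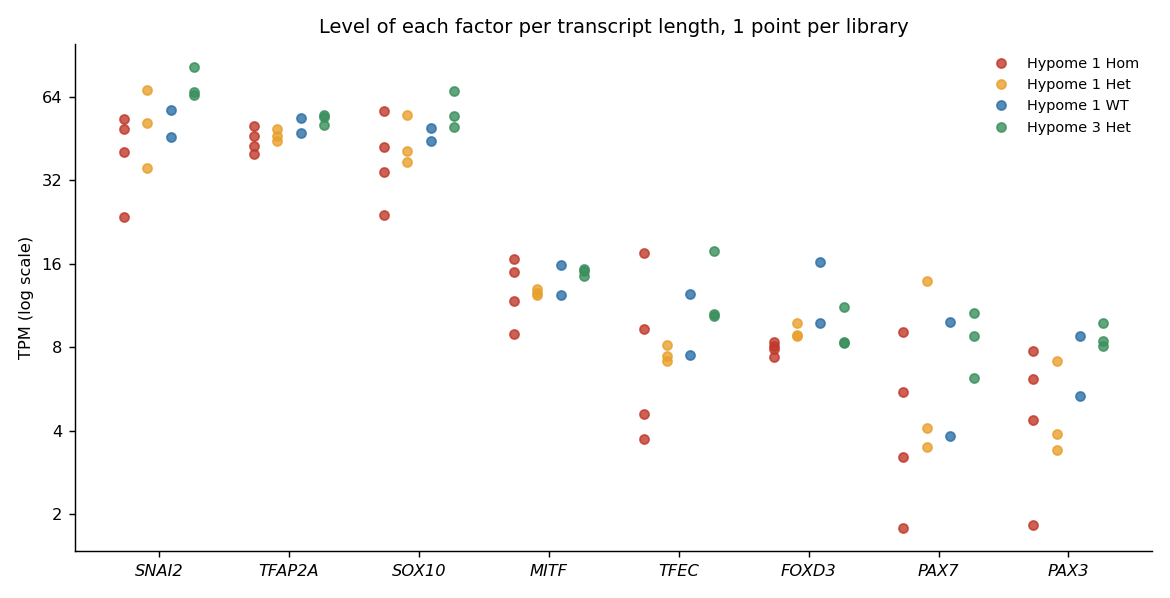
TPM of each factor (log scale) in every library, coloured by group, with the factors ordered by their mean over the 12 libraries. *SNAI2*, *TFAP2A* and *SOX10* lie above *MITF* in every group, and the 4 factors to the right of *MITF* overlap one another in most groups.

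The first question was whether the Hypome 1 genotype goes with a change in these regulators. No factor was called in any comparison at an adjusted p under 0.05 (edgeR quasi-likelihood test, Benjamini-Hochberg over 16751 genes, 6 residual degrees of freedom), by edgeR or by DESeq2 under any setting tried. DESeq2, which called 214 genes (1.31%) for Hom against WT, 1135 (7.1%) for Hom against Het and 0 (0%) for Het against WT where edgeR called 3, 6 and 0, also left 0 of 8 in each comparison. At an unadjusted p under 0.05 it too had *MITF* alone in Hom against Het and none in Hom or Het against WT. In Hom against WT skin, 0 of 8 factors had an adjusted p under 0.05, where 0.0179% of all genes did, and 0 of 8 had an unadjusted p under 0.05, where 8.53% did. In Hom against Het skin, 0 of 8 were called, against 0.0358% of all genes, and 1 of 8, *MITF*, had an unadjusted p under 0.05, against 17.8%. In Het against WT skin, 0 of 8 were called and 0 of 8 had an unadjusted p under 0.05, against 0% and 1.53% of all genes. The values of the 3 groups did not overlap for 0 of 8 factors in Hom against WT, 2 of 8 in Hom against Het and 1 of 8 in Het against WT, shares to be read against 19.5%, 17.2% and 12.9% of all genes.

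*MITF*, the factor that directs melanophore differentiation, was at 33.7, 35.2, 40.8 and 40.1 CPM in the 4 Hom libraries, 31.7, 28.6 and 29.9 CPM in the 3 Het libraries, and 30.5 and 36.8 CPM in the 2 WT libraries. Every Hom library was above every Het library, and the WT libraries lay across both. The log2 fold change of Hom over Het was 0.32 ± 0.12 (SE; 95% interval 0.05 to 0.58), with an unadjusted p of 0.0241 and an adjusted p of 0.211 by edgeR, and an exact permutation p of 0.0571 (2-sided, smallest possible 0.0286). Leaving out each library in turn gave 0.28 to 0.36, with unadjusted p from 0.0156 to 0.0707. Within the only season that held both genotypes, Hom replicates 2 and 3 were at 35.2 and 40.8 CPM and Het replicate 3 at 29.9 CPM. The unadjusted p was no longer under 0.05 with season as a factor (0.29 on the log2 scale), with the replicate number as a block (0.28) or with library totals in place of TMM.

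The difference in *MITF* depended in size on how libraries were scaled. In TPM, the Hom libraries were at 8.93, 11.7, 16.6 and 14.9 and the Het libraries at 12.5, 13.0 and 12.3, so that the groups overlapped, with Hom replicates 1 and 2 lowest of all 7. Scaled to library totals in place of TMM, the log2 fold change of Hom over Het was 0.15, where the median log2 fold change of all genes was -0.18, against 0 with TMM. Against WT, Hom skin gave 0.15 ± 0.13 (edgeR, adjusted p = 0.793) with TMM and -0.03 with library totals. Het over WT gave -0.16 ± 0.14 (edgeR, adjusted p = 1.0).

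*SOX10*, the crest and glial factor upstream of *MITF*, was at 60.4, 68.5, 93.5 and 75.6 CPM in Hom, 63.1, 81.1 and 66.5 CPM in Het, and 81.7 and 69.0 CPM in WT libraries. The lowest and the highest of the 9 values were both in Hom skin, and all groups overlapped. The log2 fold changes were -0.02 ± 0.18 for Hom over WT, 0.09 ± 0.16 for Hom over Het and -0.10 ± 0.19 for Het over WT, with 95% intervals that stayed within -0.53 and 0.45 (edgeR, unadjusted p from 0.61 to 0.93). For *SOX10*, a difference of 1.5-fold in either direction thus lay outside every interval of this TMM fit, whose bounds ran from 0.691 to 1.36 as ratios. Over the other settings the log2 fold change reached -0.20 for Hom over WT and -0.30 for Het over WT. Intervals are not given for those settings, so this limit holds for the TMM fit alone.

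*TFAP2A*, an activator of crest and pigment genes that is also expressed in epidermis, was at 126, 107, 104 and 104 CPM in Hom, 94.5, 85.6 and 100 CPM in Het, and 111 and 92.5 CPM in WT libraries. All 4 Hom libraries were above all 3 Het libraries, and Hom replicate 1 stood apart at the top. The log2 fold change of Hom over Het was 0.24 ± 0.13 (edgeR, adjusted p = 0.343; exact permutation p = 0.0286, the smallest that 4 against 3 libraries allow), and it was 0.05 with library totals in place of TMM. The summed level of keratinocyte genes was 3950 to 4220 CPM in Hom, 2210 to 3450 CPM in Het and 3060 to 3400 CPM in WT libraries with TMM, but overlapped in TPM, at 1030 to 1570 in Hom, 1060 to 1420 in Het and 1330 to 1350 in WT libraries. Of these genes 3 of 7 (*DSP*, *CLDN4* and *GRHL3*) had an unadjusted p under 0.05 for Hom over Het, all higher, against 17.8% of all genes in either direction and 9.7% higher. Their part in the *TFAP2A* values was not tested, and *KRT5*, *KRT14*, *KRT15* and *CDH1* were not matched by symbol.

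*FOXD3*, an early crest factor that restrains the melanocyte fate in chick and zebrafish embryos, was at 10.8, 8.02, 7.15 and 8.11 CPM in Hom, 8.09, 7.08 and 8.64 CPM in Het, and 8.76 and 13.7 CPM in WT libraries. WT replicate 2 was the highest, and the 3 Het values lay below both WT values. The log2 fold change was -0.40 ± 0.23 for Hom over WT (edgeR, adjusted p = 0.683; exact permutation p = 0.267) and -0.50 ± 0.24 for Het over WT (edgeR, adjusted p = 1.0; exact permutation p = 0.1, the smallest that 3 against 2 libraries allow). WT replicate 2 carried most of both: without it they were -0.04 and -0.14. With library totals in place of TMM they were -0.61 and -0.51, both with an unadjusted p under 0.05 (edgeR, adjusted p = 0.406 and 1.0). Hom over Het gave 0.10 ± 0.21.

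*SNAI2*, a repressor of epithelial adhesion genes in migrating crest, was at 37.0, 50.2, 54.2 and 54.3 CPM in Hom, 54.5, 61.8 and 35.9 CPM in Het, and 59.0 and 44.3 CPM in WT libraries. The groups overlapped fully, with the lowest values in Het replicate 3 and Hom replicate 1. The 3 log2 fold changes were -0.08 ± 0.23 for Hom over WT, -0.05 ± 0.20 for Hom over Het and -0.02 ± 0.24 for Het over WT. With season as a factor they were less even: 0.58 for Hom over Het and -0.64 for Het over WT, the second with an unadjusted p under 0.05 (edgeR, adjusted p = 1.0).

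**Figure D2:**
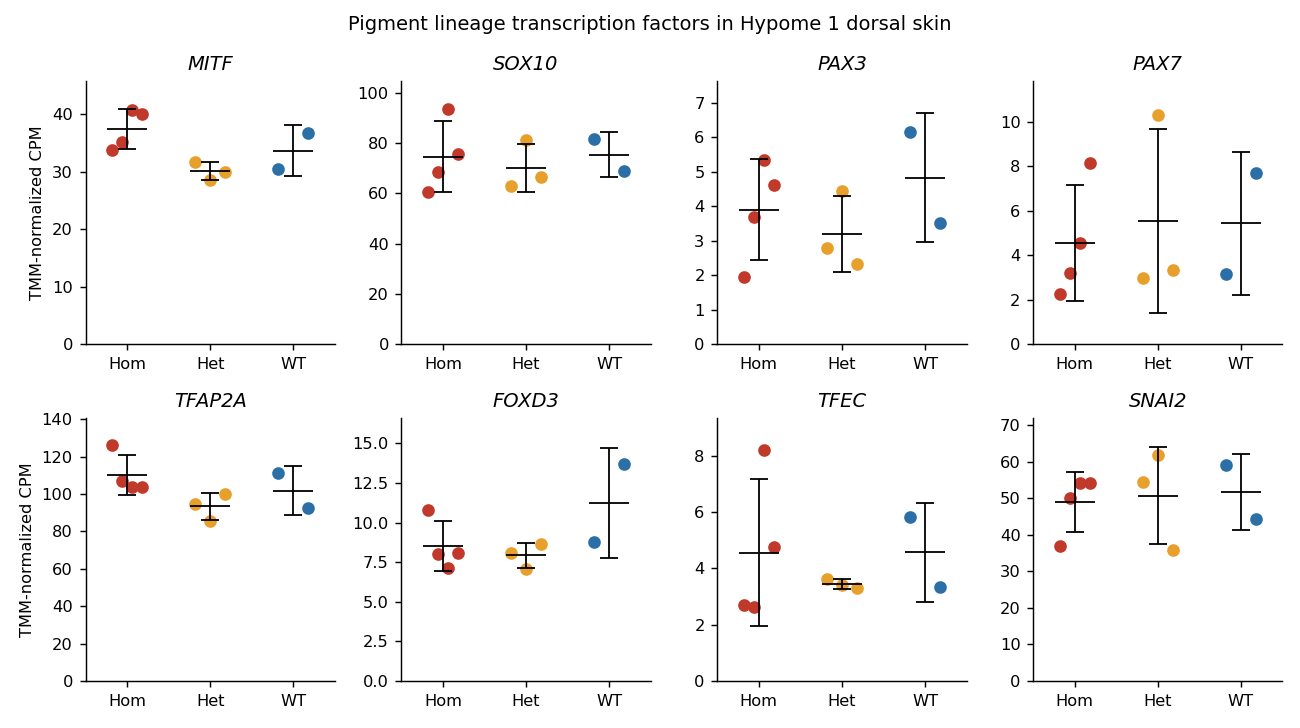
TMM-normalized CPM of the 8 factors in the Hypome 1 libraries, 1 point per library, with the mean and SD of each genotype as bars. Points of the 3 genotypes overlap in most panels; *MITF* and *TFAP2A* are the panels in which every Hom point lies above every Het point, and *PAX7* shows 1 high library in each genotype.

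The 3 factors lowest in CPM, which does not correct for gene length, varied widely between embryos of 1 genotype. *PAX3*, a crest factor that activates *MITF* in mammals, was at 1.94, 3.70, 5.35 and 4.63 CPM in Hom, 2.80, 4.45 and 2.33 CPM in Het, and 6.15 and 3.5 CPM in WT libraries. The highest library was 3.17-fold above the lowest. The largest of its 3 genotype differences was -0.59 ± 0.45 for Het over WT (edgeR, adjusted p = 1.0), and the groups overlapped in all 3. With season as a factor it was -1.28, and Hom over Het was 1.01 in place of 0.29 (edgeR, adjusted p = 1.0 and 0.999).

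*PAX7*, needed for xanthophores in zebrafish and for muscle stem cells in mouse, was at 2.25, 3.22, 4.54 and 8.16 CPM in Hom, 2.98, 10.3 and 3.33 CPM in Het, and 3.16 and 7.70 CPM in WT libraries. Each genotype had 1 library above 7 CPM and its others below 5 CPM, which gave a 4.57-fold range, wider on the log2 scale (SD 0.76) than that of 87.1% of the genes tested. Hom replicate 1, with a muscle sum of 4400 CPM, had the lowest *PAX7*, and Het replicate 2, with the highest *PAX7*, had a muscle sum of 303 CPM; the part of muscle in the *PAX7* values was not tested. The log2 fold changes were -0.26 ± 0.62 for Hom over WT, -0.28 ± 0.55 for Hom over Het and 0.02 ± 0.66 for Het over WT. Their 95% intervals were -1.65 to 1.13, -1.51 to 0.96 and -1.46 to 1.5. Each includes a fall of more than 2-fold, and those against WT also include a rise of more than 2-fold.

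*TFEC*, the relative of *MITF* linked to iridophores, was at 2.69, 2.62, 8.20 and 4.76 CPM in Hom, 3.62, 3.42 and 3.30 CPM in Het, and 5.83 and 3.33 CPM in WT libraries. Hom replicate 3 was far above the rest, and the other Hom values lay on both sides of the narrow Het range. The same library was the highest in the summed iridophore genes, a list that includes *TFEC*, at 2180 CPM against 1220 to 1510 CPM in the other Hom, 750 to 1290 CPM in Het and 1280 to 1290 CPM in WT libraries. In Hom replicate 3 *GPNMB*, also a target of *MITF*, made up 1710 CPM of the sum. This peak was not limited to iridophore genes. Hom replicate 3 was also the highest in the summed melanophore genes, at 2230 CPM against 1020 to 2100 CPM elsewhere, and in *MITF* and *SOX10*. That library was also the highest in *PNP*, an enzyme of the purine route that feeds iridophore crystals, at 80.5 CPM against 16.9 to 58.6 CPM elsewhere, but the lowest in *ALX1*, another gene of the list, at 8.87 CPM against 9.83 to 15.8 CPM elsewhere. The log2 fold change of Hom over Het was 0.41 ± 0.41 (edgeR, adjusted p = 0.617) with Hom replicate 3 and -0.03 without it.

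Set against all genes tested, the 8 factors covered a wide range of variability over the 9 Hypome 1 libraries. *TFAP2A*, *MITF* and *SOX10* were among the steadier genes, with an SD of log2 CPM of 0.16, 0.18 and 0.20, larger than that of 16.8%, 22.3% and 27.5% of genes. *SNAI2* (0.28) and *FOXD3* (0.30) were near the middle, and *TFEC* (0.53), *PAX3* (0.54) and *PAX7* (0.76) exceeded at least 75.3% of genes. These 3 are also the factors with the fewest counts.

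The second comparison set the Hypome 3 Het libraries beside the Hypome 1 Het libraries, the only genotype class the 2 tables share. The line, the sequencing depth and the counting, which left more even counts in Hypome 1, cannot be told apart here. None of the 8 factors was called (edgeR, 15865 genes, 4 residual degrees of freedom), against 0.151% of all genes, and 1 of 8, *PAX3*, had an unadjusted p under 0.05, against 14.8%. DESeq2 called 0 of 8, against 3.16% of all genes, and had the same 1 factor, *PAX3*, at an unadjusted p under 0.05. The groups did not overlap for 2 of 8 factors, *PAX3* and *TFEC*, against 21% of all genes.

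*PAX3* was at 5.30, 6.28 and 5.63 CPM in the Hypome 3 Het libraries, against 3.11, 4.95 and 2.58 CPM in the Hypome 1 Het libraries. All Hypome 3 values were higher, by a log2 fold change of 0.69 ± 0.29 (95% interval 0.02 to 1.37; edgeR, adjusted p = 0.328; exact permutation p = 0.1, the smallest that 3 against 3 libraries allow). Without each library in turn it was 0.51 to 1.01, with unadjusted p from 0.00461 to 0.122 by edgeR. Of these fits, only the one without Hypome 1 Het replicate 2 kept an unadjusted p under 0.05. In the season with 2 libraries of each morph the values were 5.30 and 6.28 CPM in Hypome 3 against 3.11 and 4.95 CPM in Hypome 1, and in the other 5.63 against 2.58 CPM.

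*TFEC* was at 4.43, 7.71 and 4.92 CPM in the Hypome 3 Het libraries, against 4.03, 3.80 and 3.65 CPM in the Hypome 1 Het libraries. The Hypome 3 values were all higher, though the lowest of them was close to the highest Hypome 1 value. The log2 fold change was 0.57 ± 0.26 (edgeR, adjusted p = 0.37; exact permutation p = 0.1), and 0.28 without Hypome 3 Het replicate 2.

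The other 6 factors overlapped between the 2 morphs. *MITF* was at 33.6, 34.9 and 35.4 CPM in Hypome 3 Het and 35.3, 31.8 and 33.1 CPM in Hypome 1 Het libraries. *TFAP2A* was at 101, 105 and 105 CPM in Hypome 3 Het and 105, 95.2 and 111 CPM in Hypome 1 Het libraries. The 95% intervals of the log2 fold change were -0.16 to 0.27 for *MITF* and -0.22 to 0.22 for *TFAP2A*. *SOX10* was at 99.8, 82.7 and 81.9 CPM in Hypome 3 Het and 70.1, 90.2 and 73.4 CPM in Hypome 1 Het libraries, with a log2 fold change of 0.18 ± 0.14. The log2 fold change was 0.28 ± 0.20 for *SNAI2*, 0.10 ± 0.49 for *PAX7* and -0.18 ± 0.18 for *FOXD3*, and the *PAX7* value ran from -0.20 to 0.91 as each library was left out, below 0 without Hypome 1 Het replicate 1 or 3 or Hypome 3 Het replicate 1 and highest without Hypome 1 Het replicate 2.

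**Figure D3:**
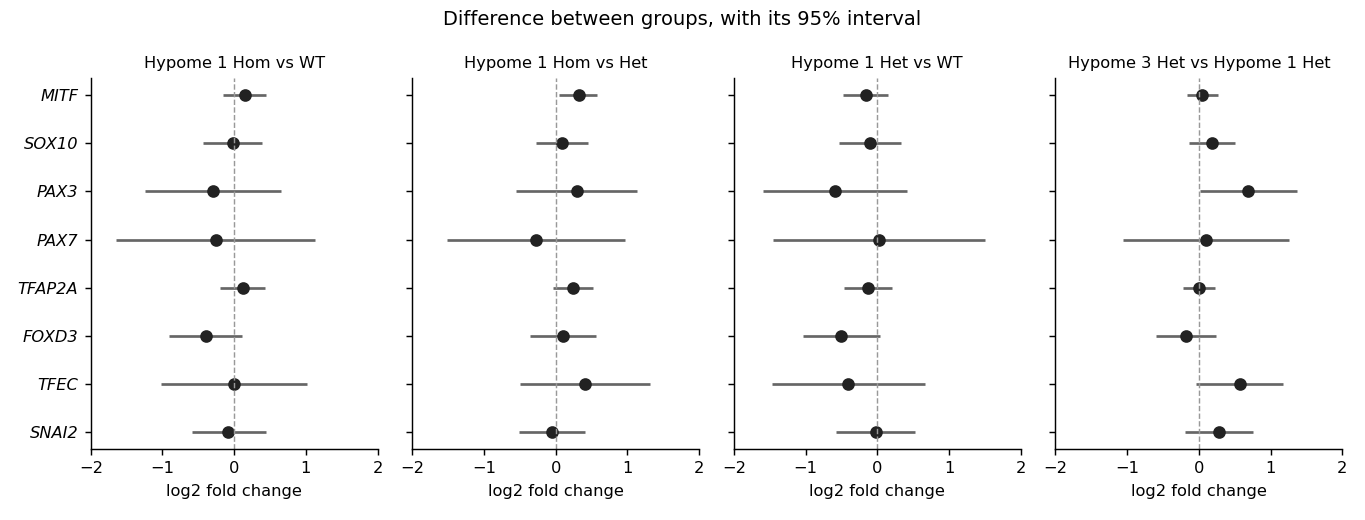
Log2 fold change of each factor in the 4 comparisons, first-named group over second, as a point with its 95% interval as a line. The interval lies above 0 only for *MITF* in Hom against Het skin (0.05 to 0.58) and for *PAX3* in Hypome 3 Het against Hypome 1 Het skin (0.02 to 1.37), neither of which passed adjustment over all genes.

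Whether libraries rich in 1 factor were rich in others was asked over the 9 Hypome 1 libraries, for all 28 pairs. *SOX10* and *PAX3* went together most closely: Pearson's r was 0.88 (exact permutation p = 0.00176, adjusted over the 28 pairs 0.0492) and Spearman's rho 0.93 (exact permutation p = 0.00075, adjusted 0.021). The relation held without the 2 libraries farthest from the median of *SOX10* (r = 0.89) and after each genotype's mean was subtracted (r = 0.90). No season held more than 4 of these libraries, so no correlation within a season was computed. *SOX10* and *PAX3* were the only 1 of 28 pairs past an adjusted p of 0.05. An unadjusted p under 0.05 was reached by 5 pairs, of which *PAX7* and *TFAP2A* ran opposite (r = -0.70, exact permutation p = 0.0318, adjusted 0.178). Of the 28 r, 18 were above 0. After genotype means were subtracted, *FOXD3* ran against *PAX3* (r = -0.92), *SOX10* (-0.82) and *SNAI2* (-0.81), with no p computed. The share of all gene pairs with such r was not computed.

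*SOX10* and *TFEC* gave an r of 0.84 (exact permutation p = 0.00454, adjusted 0.0635) and a rho of 0.73 (exact permutation p = 0.0311, adjusted 0.29), but r was 0.49 without the 2 farthest libraries, so it rests on those. They were Hom replicate 3 and WT replicate 1, both high in *SOX10*, and the libraries low in *SOX10* were not left out. *PAX3* and *SNAI2* gave an r of 0.83 (exact permutation p = 0.00688, adjusted 0.0642) and a rho of 0.67 (exact permutation p = 0.0589, adjusted 0.412), with r at 0.71 without the 2 farthest. No pair with *MITF* passed: its r with the other 7 ran from 0.01 to 0.39, with adjusted p of at least 0.524. Without TMM factors these r ran from 0.14 to 0.67, with adjusted p of at least 0.204. Hom replicate 1 was the lowest of the 9 libraries in *SOX10*, *PAX3* and *PAX7* and the highest in *TFAP2A*.

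**Figure D4:**
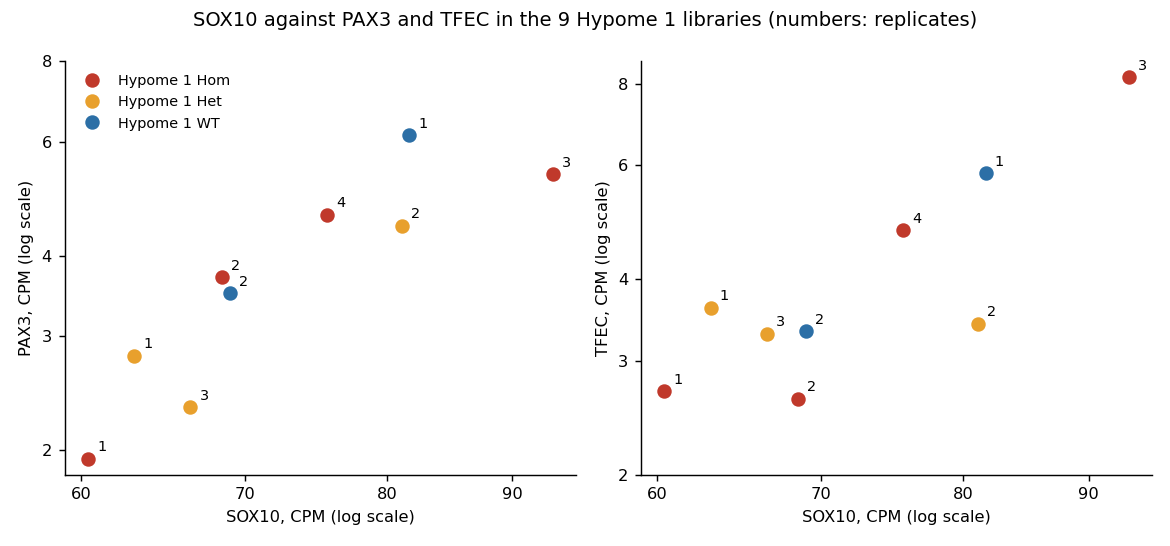
CPM of *PAX3* (left) and *TFEC* (right) against *SOX10* in the 9 Hypome 1 libraries, log scales, coloured by genotype and numbered by replicate. *PAX3* climbs with *SOX10* through all genotypes (r = 0.88). For *TFEC* r was 0.84, and 0.49 without the 2 libraries farthest from the median of *SOX10*. Those were Hom replicate 3 and WT replicate 1, both above that median.

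The genes whose profile over the 9 libraries was most like that of *MITF* were ranked by the root mean square difference of log2 CPM, centred on each gene's mean, among 14949 genes that varied enough to compare. The first 5 were *PLEK* (0.047), *AHCYL1* (0.0651), *MLANA* (0.0725), *GATAD2A* (0.0815) and *RNF185* (0.0843), against an SD of 0.184 for *MITF* itself. *MLANA*, a melanosome protein, was at 94.4, 104, 116 and 117 CPM in Hom, 85.0, 80.2 and 80.1 CPM in Het, and 93.2 and 95.3 CPM in WT libraries. Every Hom value was above every Het value, as in 8.93% of all genes. *PLEK*, *AHCYL1* and *RNF185* shared this, but *GATAD2A* did not. Genes chosen for a profile like that of *MITF* are likely to share its separation, so this is no separate evidence. The nearest of the other 7 factors was *TFAP2A*, in place 1100.

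**Figure D5:**
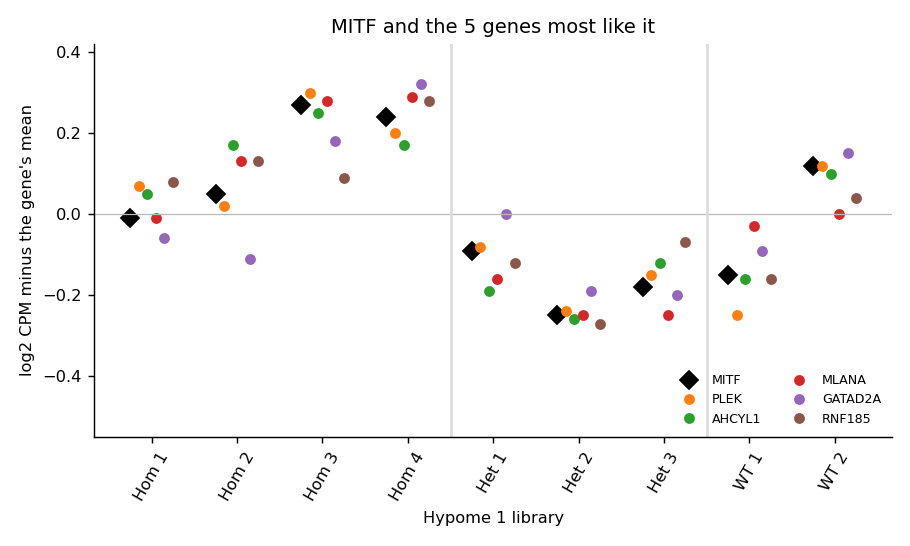
Log2 CPM minus each gene's mean over the 9 Hypome 1 libraries, for *MITF* as black diamonds and the 5 genes with the most similar profile as coloured points. *MLANA* follows *MITF* within a root mean square difference of 0.0725, with its highest values in Hom replicates 3 and 4 and its lowest in Het replicates 2 and 3.

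The factors other than *PAX3* and *PAX7* were also read beside genes of their own or related families. In the MITF/TFE family, *TFE3*, a regulator of lysosome genes, had the highest level in every group, at 19.3 TPM in Hom, 23.6 TPM in Het, 25.1 TPM in WT and 32.8 TPM in Hypome 3 Het skin, or 40.1% to 56.8% of the family's total per library. *MITF* made up 22.2% to 38.8% of it and *TFEB* 2.16% to 4.85%. *SOX10* made up 65.3% to 77.9% of the SOXE and SOXD factors, well above *SOX9* and *SOX8*. In Hypome 3 Het over Hypome 1 Het skin, *SOX9* gave a log2 fold change of 0.60 ± 0.16 (edgeR, adjusted p = 0.204) and *SOX8* 0.74 ± 0.31 (edgeR, adjusted p = 0.332). In the TFAP2 family, *TFAP2C*, an epidermal regulator, was above *TFAP2A* at 139 TPM in Hom, 155 TPM in Het, 167 TPM in WT and 199 TPM in Hypome 3 Het skin, and *TFAP2D* was at 0 in all 12 libraries. *TFAP2E* was at 23.6 to 28.6 CPM in Hom, 29.5 to 32.1 CPM in Het and 29.1 to 37.8 CPM in WT libraries, and the Hom range was also the lowest in TPM. It gave -0.32 ± 0.14 for Hom over WT and -0.20 ± 0.12 for Hom over Het (edgeR, adjusted p = 0.573 and 0.411). For Hom over WT, 1 of 4 TFAP2 genes, *TFAP2E*, had an unadjusted p under 0.05, against 8.53% of all genes.

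With *FOXD3* and *SNAI2* counted in, 3 FOXD genes and 6 Snail, ZEB and TWIST genes were tested. For Hom over Het, 1 of 3 (*FOXD1*) and 2 of 6 (*TWIST1* and *SNAI3*) had an unadjusted p under 0.05, all lower, against 17.8% of all genes in either direction. *FOXD1*, a mesenchymal relative of *FOXD3*, ranged over 23.3 to 34.0 CPM in Hom, 42.2 to 64.9 CPM in Het and 48.9 to 52.4 CPM in WT libraries. Hom values were below all others, with a log2 fold change of -0.77 ± 0.17 for Hom over Het (edgeR, adjusted p = 0.0917) and -0.73 ± 0.19 for Hom over WT (edgeR, adjusted p = 0.413). *TWIST1*, a factor of mesenchyme, gave -0.69 ± 0.22 for Hom over Het (edgeR, adjusted p = 0.15) with overlapping groups, and *SNAI3* -1.30 ± 0.51 (edgeR, adjusted p = 0.23) at under 1 CPM. DESeq2 called *FOXD1* and *TWIST1* lower for Hom over Het, where it called 7.1% of all genes, and no relative in Hom over WT. Of the dermal fibroblast genes, 4 of 10 tested had an unadjusted p under 0.05 for Hom over Het, against 17.8% of all genes in either direction. All 4 were lower, *PRRX1* (-0.51 ± 0.13), *PDGFRA* (-0.81 ± 0.26) and *TWIST1*, which is also on this list, among them. The list median was -0.31, and 4 of the 10 had a log2 fold change above 0. The summed level of the list overlapped, at 115000 to 118000 CPM in Hom, 101000 to 125000 CPM in Het and 110000 to 134000 CPM in WT libraries. The part of fibroblasts in the *FOXD1* values was not tested.

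Among other regulators of the neural crest, 25 of 26 were tested in the Hypome 1 libraries and 0 were called by edgeR. For Hom over Het, 2 had an unadjusted p under 0.05 and were higher and 4 were lower, against 17.8% of all genes in either direction, with a median of -0.04 beside 0 for all genes. The 3 with the smallest p were *PRDM1* (0.83 ± 0.16), *ZIC1* (-0.55 ± 0.11) and *MYCN* (-0.51 ± 0.14), by edgeR with adjusted p of 0.0849, 0.0859 and 0.121. *PRDM1*, which acts in crest and epidermis, was at 19.7 to 29.2 CPM in Hom, 13.0 to 16.4 CPM in Het and 13.4 to 15.2 CPM in WT libraries. *ZIC1*, a factor of the neural plate border and dorsal mesoderm, was at 24.2 to 30.3 CPM in Hom, 35.9 to 41.8 CPM in Het and 39.6 to 40.1 CPM in WT libraries, so that the Hom libraries of both genes were apart from all others. DESeq2 called 4 of the list for Hom over Het, *PRDM1* higher and *ZIC1*, *MYCN* and *TWIST1* lower, where it called 7.1% of all genes. For Hom over WT it again called *PRDM1* and *ZIC1*, where it called 1.31% of all genes.

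Of 17 inputs to *MITF*, the receptors, ligands and transcription factors that act on its promoter or protein in mammals, 12 could be tested and 0 were called by edgeR in Hom over Het or over WT, while DESeq2 called 1, *LEF1*, as lower in Hom over Het, where it called 7.1% of all genes. For Hom over Het, 3 of 12 had an unadjusted p under 0.05, against 17.8% of all genes in either direction, all lower: *LEF1*, the nuclear effector of Wnt signalling (-1.03 ± 0.28, edgeR adjusted p = 0.114), *EDNRB*, the endothelin receptor (-0.66 ± 0.22, edgeR adjusted p = 0.159), and *CTNNB1*, the partner of LEF1 (-0.33 ± 0.14, edgeR adjusted p = 0.244). The median over the 12 was -0.29. *LEF1* and *EDNRB* were also lower than in WT, at -0.78 ± 0.31 and -0.66 ± 0.24 (edgeR, adjusted p = 0.521 and 0.495). For Hom over WT, DESeq2 on the 9 libraries called 0 of the 12. The paper, with its own DESeq2 comparison of Hom and WT skin, reports both *LEF1* and *EDNRB* as downregulated in Hom skin.

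On the other side of *MITF* and *SOX10*, 28 genes known as their targets, mostly in melanocytes, were tested. *SNAI2* was among them, as were *ACP5* and *CTSK*, which are also on the list of macrophage and osteoclast genes. Of the 28, 0 were called by edgeR in any of the 4 comparisons. DESeq2 called 2, *MLANA* and *PMEL*, as higher in Hom over Het, against 7.1% of all genes, and 3, *DCT*, *RAB38* and *TBX2*, as higher in Hypome 3 Het over Hypome 1 Het, against 3.16%. For Hom over Het, 4 had an unadjusted p under 0.05 and were higher, *MLANA* (0.40 ± 0.11), *PMEL* (0.63 ± 0.21), *SLC45A2* (0.31 ± 0.12) and *GPNMB* (0.77 ± 0.33), and 2 were lower, *EDNRB* and *CDK2* (-0.42 ± 0.17), beside 17.8% of all genes in either direction. The median over the 28 was 0.22. The first 3 are melanophore markers, of which 3 of 10 were higher at an unadjusted p under 0.05, with a median of 0.30. The summed level of these markers was 1600 to 2230 CPM in Hom, 1020 to 1630 CPM in Het and 1720 to 2100 CPM in WT libraries. Of this sum *PMEL* alone made up 1240 to 1600 CPM in Hom and 661 to 1190 CPM in Het libraries. In TPM the sum was 1060 to 2300 in Hom, 1230 to 1680 in Het and 1870 to 2100 in WT libraries, so that the Hom range spanned the Het range. For Het over WT, *PMEL* was the only target with an unadjusted p under 0.05 (-0.61 ± 0.24, edgeR adjusted p = 1.0), and for Hom over WT the target median was 0.02.

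In Hypome 3 Het over Hypome 1 Het skin, where *MITF* gave 0.05 ± 0.09, the targets lay on both sides of 0. *RAB38*, which traffics melanosome cargo, gave 0.80 ± 0.13 (edgeR, adjusted p = 0.0966), *TBX2*, a repressor of senescence genes, 1.45 ± 0.23 (edgeR, adjusted p = 0.0966), and *SLC24A5*, a melanosome ion exchanger, 0.46 ± 0.12 (edgeR, adjusted p = 0.198). *DCT* was also higher at an unadjusted p under 0.05, and *SLC45A2*, *TRPM1* and *HPS4* were lower, so 4 of 28 were higher and 3 lower, against 14.8% of all genes in either direction, with a median of 0.08.

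Markers of the other cells that use these factors were read in the same way. Of 13 Schwann cell genes, which share *SOX10*, 1 was higher for Hom over Het at an unadjusted p under 0.05, *ERBB3*, the neuregulin co-receptor (0.95 ± 0.22; called by DESeq2, adjusted p = 0.099 by edgeR), and 3 were lower, *PMP22* (-0.43 ± 0.15), *MAL* (-0.56 ± 0.21) and *NGFR* (-0.57 ± 0.24), against 17.8% of all genes in either direction. Their summed level overlapped, at 631 to 722 CPM in Hom, 609 to 801 CPM in Het and 678 to 805 CPM in WT libraries. Of 8 xanthophore genes, which share *PAX7*, edgeR called 1 for Hom over Het, *XDH*, against 0.0358% of all genes. DESeq2 called 2, *XDH* and *SCARB1*, a carotenoid receptor, against 7.1% of all genes. Of the 8 genes 4 were above 0, with a median of -0.01. *XDH*, the pterin and purine enzyme xanthine dehydrogenase, was at 10.1 to 31.1 CPM in Hom and 1.09 to 2.78 CPM in Het libraries (log2 fold change 3.59 ± 0.45, edgeR, adjusted p = 0.0456), where *PAX7* gave -0.28 ± 0.55. With season as a factor, or with the replicate number as a block, *XDH* did not pass. *SCARB1* was at 51.8 to 132 CPM in Hom and 22.4 to 46.6 CPM in Het libraries (1.41 ± 0.33, edgeR, adjusted p = 0.099). Against WT *XDH* gave 3.34 ± 0.53 (edgeR, adjusted p = 0.171), a difference that DESeq2 called. Mast cells and osteoclasts use *MITF* in mammals: for Hom over Het, 1 of 4 mast cell genes, *HDC* (0.79 ± 0.33, edgeR adjusted p = 0.255), and 0 of 9 macrophage and osteoclast genes had an unadjusted p under 0.05. Of the 4 mast cell genes 2 were above 0, with a median of 0.03. The summed mast cell genes were at 28.0 to 39.0 CPM in Hom, 18.9 to 29.3 CPM in Het and 24.9 to 39.2 CPM in WT libraries. *HDC* alone was at 17.2 to 24.2 CPM in Hom, 5.83 to 16.7 CPM in Het and 15.2 to 27.1 CPM in WT libraries. The part of mast cells in the *MITF* values was not tested.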

How the data were processed

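Dorsal skin RNA of leopard gecko embryos was sequenced as paired-end TruSeq Stranded mRNA libraries. The counts were deposited by the authors without normalization: reads were aligned to their own assembly with STAR 2.7.10b, and, per the study's methods, uniquely mapped paired-end reads were counted on a lifted-over RefSeq annotation with featureCounts (Subread 2.0.6). The strand setting, and whether mates were counted as 1 fragment, are not given in the sources used here. The deposited tables also hold each gene's exonic length in bases, used here for TPM. *NEB*, broken over 5 lines in both tables, was left out, and 3 columns of the Hypome 3 table that match no sample's label were not used.

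Genes were filtered with edgeR 4.0.16 in R 4.3.3 (minimum count 10, minimum total count 15), normalized by TMM and tested with the quasi-likelihood test, with 1 mean per genotype over the 9 Hypome 1 libraries (16751 genes) and, separately, over the 6 Het libraries of both morphs (15865 genes). P-values were adjusted by Benjamini-Hochberg over all genes tested, at a threshold of 0.05. Intervals use the standard error and the fit's degrees of freedom. Exact permutation tests used log2(CPM + 0.1). The script was tested on simulated counts.

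Named genes were the 8 factors, their family relatives, list genes called or among the 3 with the smallest p, and the 5 genes nearest to *MITF* in profile; those nearest to *SOX10* are not reported here. A few further list genes with an unadjusted p under 0.05 were named after their values were seen. The factors and the lists were chosen with earlier results of these data known. Alternatives were DESeq2 1.42.0 (size factors and Wald test), no filter, halved Hypome 1 counts, a replicate block, season as a factor, only the groups compared, leaving out each library or the 2 libraries of lower RNA integrity, and, chosen after seeing the data, library totals in place of TMM. Season and RNA integrity came from the study's list of libraries.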

Additional observations from a re-analysis of the deposited data

Results flagged for a closer look

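*TFAP2A* in Hom replicate 1 was set apart from the other 3 Hom libraries: at 126 CPM against 104 to 107 CPM, its gap to the nearest library was 0.842 of the group's whole range, past Dixon's critical value for 4 samples at 95%. Chance sets apart about 1 in 20 groups, and 8 groups were looked at. In TPM the same library was instead the lowest of the 4, at 40.0 against 42.7 to 50.5.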

How the results depend on the processing

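No alternative called any of the 8 factors at an adjusted p under 0.05. The number of all genes called depended strongly on the tool and the libraries. For Hom against WT it was 3, but 214 with DESeq2 on the 9 libraries, 426 with DESeq2 on the 2 groups alone, 1 without the 2 libraries of lower RNA integrity, and 0 to 14 as each library was left out (0 without WT replicate 2, 14 without Hom replicate 3). For Hom against Het it was 6, but 1135 with DESeq2 on the 9 libraries, 1039 with DESeq2 on the 2 groups alone, 3 with edgeR on the 2 groups alone, 16 with no filter, 0 with season as a factor, 2 without the libraries of lower integrity, and 2 to 274 as each library was left out (274 without Hom replicate 3, 53 without Het replicate 3). For Het against WT it was 0, with 2 by DESeq2 on the 2 groups alone and 0 to 3 as each library was left out (3 without Het replicate 3). For Hypome 3 Het against Hypome 1 Het it was 24, but 526 with DESeq2, 13 with season as a factor and 9 to 33 as each library was left out. The cause of these shifts was not tested.

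With the replicate number as a block, 0 genes were called for Hom against WT, 0 for Hom against Het and 8 for Hypome 3 Het against Hypome 1 Het. For Het against WT the block gave -0.03 for *PAX7* and 0.01 for *SNAI2*. Same-numbered Hypome 1 libraries deviated from their group means with correlations from -0.247 to 0.182. Same-numbered Het libraries of Hypome 1 and Hypome 3 gave -0.183, 0.107 and 0.429. With so few libraries these values cannot show whether the numbers pair the embryos.

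The sign of small differences turned under some settings. With library totals in place of TMM, Hom over WT was -0.03 for *MITF* and -0.09 for *TFAP2A*, and Hom over Het was -0.08 for *SOX10* and -0.10 for *FOXD3*. Without the libraries of lower integrity, Hom over WT was 0.11 for *SOX10* and 0.02 for *SNAI2*, and Hom over Het was -0.05 for *FOXD3* and 0.05 for *SNAI2*. With season as a factor, Hom over Het was 0.08 for *PAX7*, -0.24 for *FOXD3* and 0.58 for *SNAI2*, and Het over WT was -0.24 for *PAX7*. As each library was left out, Hom over WT ran from -0.14 to 0.11 for *SOX10*, -0.65 to 0.16 for *PAX3*, -0.76 to 0.53 for *PAX7*, -0.01 to 0.25 for *TFAP2A* and -0.27 to 0.14 for *SNAI2*. Hom over Het ran from -0.04 to 0.20 for *SOX10*, -0.72 to 0.53 for *PAX7*, -0.03 to 0.18 for *FOXD3*, -0.03 to 0.60 for *TFEC* and -0.25 to 0.11 for *SNAI2*. Het over WT ran from -0.22 to 0.02 for *SOX10*, -0.79 to 0.81 for *PAX7*, -0.25 to 0.01 for *TFAP2A*, -0.76 to 0.05 for *TFEC* and -0.22 to 0.19 for *SNAI2*. Hypome 3 Het over Hypome 1 Het ran from -0.20 to 0.91 for *PAX7*.

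Without TMM factors 4 of the 28 pairs of factors passed, in place of 1. In CPM, which does not correct for length, *TFAP2A* was the highest factor in 4 Hom, 3 Het, 2 WT and 3 Hypome 3 Het libraries, against 2, 1, 1 and 0 in TPM. Hypome 3 homozygous against heterozygous skin was not run, since no column matched the homozygous samples by name. For that comparison the paper reports *MITF*, *TYRP1* and *MLANA*, among others, as upregulated in homozygous skin. It reports *OCA2* and *LEF1*, among others, as downregulated. Those differences were not tested here. With 2 WT libraries and 57 to 216 counts of *PAX3* per Hypome 1 library, the intervals of the factors with the fewest counts are wide.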
